A study of Homo sapiens with 6 samples.

Results

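The transcript models of USP34 were examined in K562 cells, an erythroid leukemia line, after shRNA knockdown (KD) of PCBP1, an RNA-binding protein with KH domains that prefers C-rich RNA and takes part in splicing. USP34 (ENSG00000115464.15) lies on the minus strand of GRCh38 at chr2:61187463-61471087, and its members were the 22 transcript models that GENCODE release 44 gives the gene, of 251612 matched transcripts in the libraries. The gene was chosen on measured values of the same contrast, namely a higher inclusion of exon 68 in shPCBP1, an exon placed below by its splice sites. All USP34 values below are therefore a description and carry no test. Of the 22 models, 2 contained this exon with both neighbouring exons, 2 joined the neighbouring exons without it, 4 overlapped part of it and 14 did not reach it. Only USP34-201 spanned at least 90% of the gene and was counted as full-length, leaving 21 partial models.

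Both groups were made from the same K562 line and held 3 libraries each. The shCtrl cells received lentivirus with a pLKO.1 plasmid whose shRNA targets luciferase, and the shPCBP1 cells the same vector with an shRNA against PCBP1. Both were then kept in 3 µg/mL puromycin for 4 days before collection, so both groups carried a vector and a drug selection. No isolation of clones was described, so each library came from a mixed population of transduced cells of 1 line, and the labels do not say whether the libraries came from separate cultures. The p-values given for other genes therefore measure the spread between these libraries. Libraries were poly(A)-selected, read in pairs over 150 cycles, and held between 67066747 and 140522444 estimated counts. PCBP1, the targeted gene, averaged 38925 ± 1454 (SD, n = 3) in shCtrl against 7041 ± 362 normalized counts (SD, n = 3) after KD, with a DESeq2 log2 fold change of -2.47 (SE 0.0439). All 12 erythroid markers examined were at 1 TPM (transcript abundance per length, scaled to the same total in each library) or more, and 6 of 13 markers of other cell types also reached that level. The summed level of those 13 markers ran from 157 to 172 TPM in shCtrl and from 135 to 158 TPM in shPCBP1, and the part of other cells in the USP34 values was not tested. In bulk RNA, fewer cells of a type and less RNA per cell cannot be told apart.

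USP34 is a very large deubiquitinase of the ubiquitin-specific protease (USP) family, and its close relatives are USP9X and USP24. It removes ubiquitin chains from Axin, the scaffold of the complex that marks β-catenin for destruction, and so acts within Wnt signalling. It also acts at DNA double-strand breaks, where it stabilises the ubiquitin ligase RNF168, and in BMP signalling, where it acts on SMAD1. A cassette exon is one that some transcripts hold and others leave out, and its percent spliced in (PSI) is the share of the summed TPM of both kinds of transcript that holds it.

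Exon 68, of the 80 exons of USP34-201, lies between exon 67 (chr2:61220310-61220457) and exon 69 (chr2:61211772-61211929). It is 635 bases long and coding, with introns of 5615 bases before it and 2130 bases after it. Since 635 leaves a remainder of 2 when divided by 3, a transcript that joins exon 67 to exon 69 changes its reading frame. The junctions are shown because the PSI rests on which of them a transcript model holds, with the exon on the 3′ side in capitals.
junction of exons 67 and 68: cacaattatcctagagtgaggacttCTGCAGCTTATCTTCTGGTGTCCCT
junction of exons 68 and 69: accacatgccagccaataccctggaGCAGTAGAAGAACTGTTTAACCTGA
junction of exons 67 and 69: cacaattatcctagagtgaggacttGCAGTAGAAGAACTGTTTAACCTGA
The junction of exons 67 and 69 was found in USP34-207 and USP34-212 only. Read in the frame of USP34-201, it meets a stop within exon 69, at the codon in capitals.
first in-frame stop without exon 68: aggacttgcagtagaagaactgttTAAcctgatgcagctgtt
That stop would be codon 2689, with 75.8% of the 3546 codons of USP34-201 before it, and it lies 1331 bases before the last exon junction. GENCODE assigns no coding sequence to either skipping model, and whether such an RNA is translated was not tested.

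The splice sites of exon 68 are given because PCBP1 binds C-rich RNA, and the base composition of the intron before the exon can be read from them. Capitals mark exon bases and lower case marks intron.
acceptor of exon 68, GRCh38 chr2:61214675-61214794, minus strand: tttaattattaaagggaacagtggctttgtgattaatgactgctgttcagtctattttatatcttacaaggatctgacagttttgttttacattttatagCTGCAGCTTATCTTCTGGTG
donor of exon 68, GRCh38 chr2:61214030-61214079, minus strand: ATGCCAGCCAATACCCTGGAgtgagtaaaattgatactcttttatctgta
acceptor of exon 69, GRCh38 chr2:61211910-61211979, minus strand: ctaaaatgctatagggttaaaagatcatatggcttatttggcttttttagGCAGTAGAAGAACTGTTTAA
In the 50 intron bases before exon 68, C made up 12%, against a median of 22% over 33972 annotated cassette exons, of which 88.1% held as much C or more. The letters CCC, searched on the transcript strand, were not in this window and were in that of 44.5% of the cassette exons. Pyrimidines of both kinds made up 62.0%, near the median of 60.0%. These are counts of letters in 1 window and say nothing of binding by PCBP1.

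Exon 68 PSI was 72.5%, 76.7% and 74.6% in the shCtrl libraries. In the shPCBP1 libraries it was 98.9%, 98.7% and 98.5%. The groups did not overlap, and the means were 74.6% ± 2.10 and 98.7% ± 0.189 (SD, n = 3), a difference of 24.1 percentage points. Over all cassette exons, 0.548% were more included by over 20 points with groups that did not overlap, and since the exon was chosen from this contrast nothing is read from that share. A total of 142 cassette exons had a larger rise with groups that did not overlap, and 6 of these had a summed level of at least 5 TPM.

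The higher PSI went with a lower level of the skipping models. Models that skip exon 68 summed to 5.92, 4.97 and 5.14 TPM in shCtrl and to 0.181, 0.229 and 0.239 TPM in shPCBP1. The exon-containing models summed to 15.6, 16.3 and 15.1 TPM in shCtrl and to 16.6, 17.1 and 16.2 TPM in shPCBP1, where the highest shCtrl library stood above the lowest shPCBP1 library. Between group means, skipping models were lower by 5.13 TPM and exon-containing models higher by 0.948 TPM. The donor of exon 67 joined exon 68 in 4 models, with 15.7 TPM in shCtrl and 16.8 TPM in shPCBP1. It joined a shorter form of the exon, with the same donor and a later acceptor, in USP34-210 alone, which was at 0.0171 TPM in shCtrl and 0.0250 TPM in shPCBP1.

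**Figure D1:**
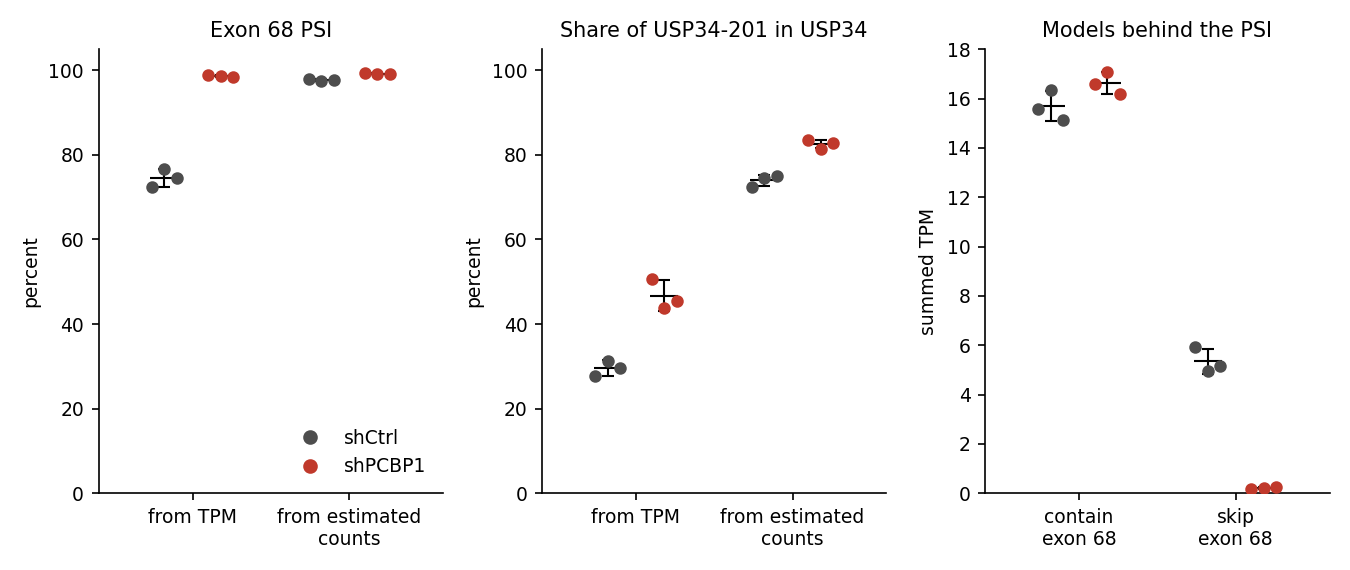
Exon 68 PSI, the share of USP34-201 among all USP34 models (both in percent, from TPM and from estimated counts), and the summed TPM of models that contain or skip the exon. Points are libraries, with 3 per group, and bars are the mean and SD. The skipping models sit at 4.97 to 5.92 TPM in shCtrl and at 0.181 to 0.239 TPM in shPCBP1.

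Of the skipping models, USP34-212 carried nearly all of the level. USP34-212 is a model of 606 bases with 6 exons, from chr2:61204527 to 61220368. It was estimated at 5.72, 4.56 and 4.86 TPM in shCtrl, from 206.3, 109.4 and 191.0 counts, and was listed at 0 in all shPCBP1 libraries. An exact 0 in such estimates can be a failed estimate, so no fold is given. Of 36590 transcripts with at least 100 counts in every shCtrl library, 80 (0.219%) were listed at 0 in every shPCBP1 library, and in the other direction 32 of 31514 were. In total, the shPCBP1 libraries held 67066747 to 85121124 estimated counts and the shCtrl libraries 83033656 to 140522444. The part of depth in these zeros was not tested. The floor of 100 counts was chosen after the values of USP34-212 were seen.

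The other skipping model, USP34-207, retains an intron and is 6307 bases long. It was at 0.207, 0.406 and 0.282 TPM in shCtrl and at 0.181, 0.229 and 0.239 TPM in shPCBP1. Its groups overlapped in TPM, so the difference in TPM of the skipping models rested mainly on USP34-212. In estimated counts, which are not scaled for depth, USP34-207 held 138, 178 and 212 in shCtrl and 78.9, 92.8 and 82.0 in shPCBP1.

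How far the letters of these models can tell them apart was examined with runs of 31 bases. Of the 576 runs in USP34-212, 0 were found in no other model, 546 (94.8%) also lay in USP34-201, and 29 were held by both skipping models and by no other transcript. No single run of 31 bases thus marked USP34-212 alone, and what read pairs over several junctions could tell apart was not examined. USP34-201 had 3535 runs of its own among 11645. The part of this sharing in the estimates was not tested.

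The difference in PSI depended on the quantity summed. From estimated counts in place of TPM, the PSI was 97.7% ± 0.208 in shCtrl and 99.2% ± 0.110 in shPCBP1 (SD, n = 3), a difference of 1.50 points. TPM divides each count by the effective length of its model, a length that Salmon reduces to allow for fragment size. It was 298 to 330 bases for USP34-212 (606 bases in full) and 10908 to 11075 bases for USP34-201 (11675 bases in full). In estimated counts, which are not scaled for depth, the skipping models held 344, 288 and 403 in shCtrl and 78.9, 92.8 and 82.0 in shPCBP1. The exon-containing models held 9447 to 17925. In normalized counts the skipping models held 252, 313 and 265 in shCtrl and 88.7, 110 and 114 in shPCBP1, and the mean in shPCBP1 was 37.6% of that in shCtrl. The exon-containing models held 11663, 12134 and 11769 normalized counts in shCtrl and 13522, 13369 and 13074 in shPCBP1. Their mean in shPCBP1 was 112% of that in shCtrl. In this unit the groups of exon-containing models did not overlap, unlike in TPM. For the PSI, the groups did not overlap from TPM or from estimated counts.

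The full-length model USP34-201, the MANE Select transcript, encodes the whole protein. It was at 10.5, 11.4 and 10.8 TPM in shCtrl and at 12.8, 12.7 and 12.9 TPM in shPCBP1. All shPCBP1 libraries stood above all shCtrl libraries, and the log2 ratio of the means was 0.23 with 0.1 TPM added. In normalized counts USP34-201 was at 9956, 10528 and 10281 in shCtrl and at 12207, 11912 and 11988 in shPCBP1, which gave the same log2 ratio of 0.23. Among 49126 transcripts at a mean of at least 1 TPM in a group, 15.4% were higher in shPCBP1 with groups that did not overlap and 14.6% were lower.

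Of the 6 USP34 models at a mean of at least 1 TPM in a group, USP34-201 was higher in every shPCBP1 library, 4 were lower in every one, and USP34-214 overlapped. USP34-203, a coding model of the last exons whose start is not known, was at 9.44, 7.42 and 8.63 TPM in shCtrl and at 4.24, 6.20 and 5.11 TPM in shPCBP1, a log2 ratio of -0.70. USP34-202, which contains exon 68 and also lacks a known start, was at 5.06, 4.89 and 4.37 TPM in shCtrl and at 3.85, 4.36 and 3.28 TPM in shPCBP1. USP34-205, another coding model without a known start, was at 2.60, 3.16 and 2.21 TPM in shCtrl and at 2.10, 1.45 and 2.21 TPM in shPCBP1. For USP34-202 and USP34-205 the nearest libraries of the groups differed by under 0.1 TPM. USP34-214, which retains an intron next to exon 67, was at 1.89, 1.90 and 0.834 TPM in shCtrl and at 0.979, 1.21 and 0.188 TPM in shPCBP1. These levels rested on few reads, with 20.6, 13.5 and 9.23 estimated counts in shCtrl and 7.03, 8.24 and 1.04 in shPCBP1.

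In shCtrl, the order of the models by mean TPM was USP34-201, USP34-203, USP34-212, USP34-202, USP34-205 and USP34-214. USP34-212 and USP34-202 were neighbours in that order, and their library values overlapped. In shPCBP1 the order was USP34-201, USP34-203, USP34-202, USP34-205 and USP34-214, with USP34-212 at 0. USP34-203 and USP34-202 overlapped there, since the lowest USP34-203 library was at 4.24 TPM and the highest USP34-202 library at 4.36 TPM. Other neighbours in either order did not overlap.

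The remaining 16 models were low. Of these, 10 reached a mean of 0.1 TPM in a group, and none of them passed a mean of 0.716 TPM in either group. Most are retained-intron models. Among the 10, USP34-219 alone had groups that did not overlap, at 0.300, 0.452 and 0.640 TPM in shCtrl and at 0, 0.242 and 0.216 TPM in shPCBP1. The 4 models that overlap part of exon 68 (USP34-208, USP34-210, USP34-211 and USP34-217) summed to at most 0.157 TPM in a shCtrl library and 0.485 TPM in a shPCBP1 library. USP34-204, the model annotated as a target of nonsense-mediated decay, and USP34-208 were listed at 0 in every library.

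**Figure D2:**
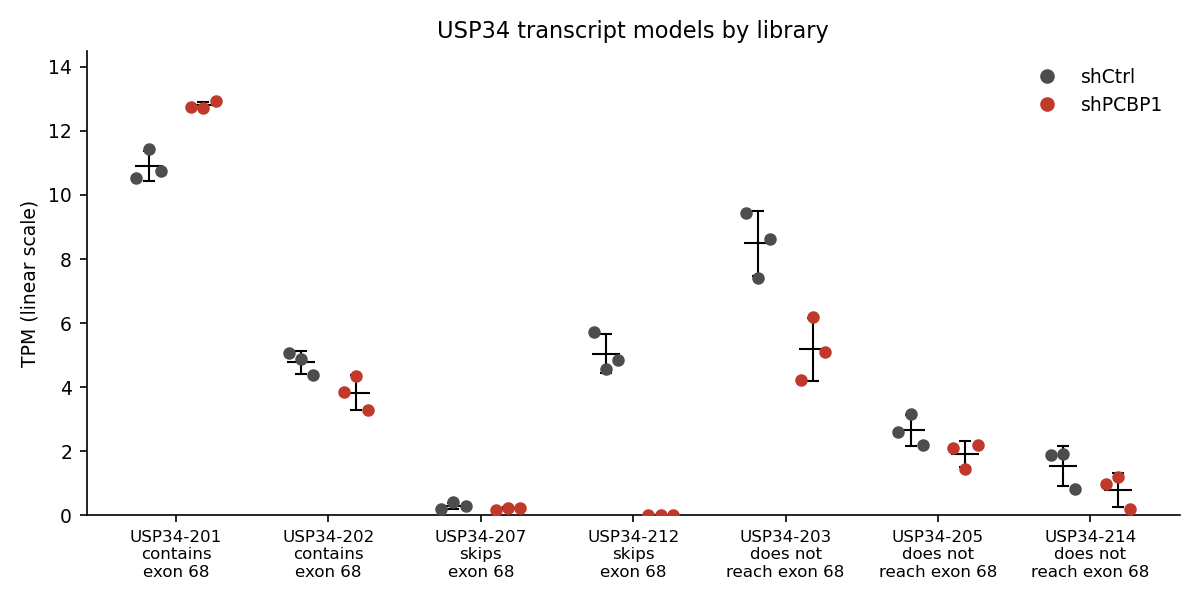
TPM of 7 USP34 models in each library, on a linear axis, with the mean and SD of each group as bars and 3 libraries per group. USP34-201 sits at 10.5 to 11.4 TPM in shCtrl and at 12.7 to 12.9 TPM in shPCBP1, while USP34-212 is at 4.56 to 5.72 TPM in shCtrl and at 0 in shPCBP1.

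The full-length share of USP34 TPM was 27.6%, 31.3% and 29.7% in shCtrl and 50.8%, 43.9% and 45.5% in shPCBP1. The groups did not overlap, and the means were 29.5% ± 1.87 and 46.7% ± 3.59 (SD, n = 3), 17.2 points apart. In estimated counts the share was 74.0% ± 1.35 in shCtrl and 82.6% ± 1.01 in shPCBP1, 8.60 points apart. Most reads given to USP34 were thus given to the full-length model in both groups, while partial models held most of its TPM in every library except shPCBP1 replicate 1. Both parts of the ratio differed, since USP34-201 was higher and the partial models summed to 26.1 ± 1.38 TPM in shCtrl and 14.7 ± 2.06 TPM in shPCBP1.

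Among the partial models, USP34-212 held 13.6% ± 1.25 of USP34 TPM in shCtrl and 0 in shPCBP1. USP34-203 held 23.0% ± 2.32 and 18.7% ± 2.36, USP34-202 12.9% ± 0.741 and 14.0% ± 2.10, and USP34-205 7.18% ± 1.31 and 7.04% ± 1.80 (SD, n = 3). For these 3 models the shares overlapped between groups.

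The share of the MANE Select transcript was also computed for the 3581 genes that hold both such a transcript and a model without a known start, at 5 TPM or more. Its median over genes was 43.1% to 43.5% in shCtrl libraries and 42.4% to 43.2% in shPCBP1 libraries, and the median difference was -0.017 points. Of these genes, 11 (0.307%) had a larger rise than USP34 with groups that did not overlap. Since USP34 was chosen from this contrast, nothing is read from that share. Models without a known start took 1.44% to 1.48% of library TPM in shCtrl and 1.49% to 1.50% in shPCBP1, a small difference with groups that did not overlap. Retained-intron models took 4.97% to 5.33% in shCtrl and 4.95% to 5.11% in shPCBP1, and their groups overlapped.

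The model estimates were also laid out along the transcript. For each exon of USP34-201, TPM was summed over the models that hold it with exactly the same ends. These sums restate the model values given above and do not measure reads over each exon. Exons 1 to 15 lie with the same ends in USP34-201 and in no other expressed model. They were thus at the level of USP34-201, 10.9 TPM in shCtrl and 12.8 TPM in shPCBP1. Exon 68 was at 15.7 and 16.6 TPM. Exons 69 to 72, which USP34-212 also holds, were on the other side, from 20.7 to 21.0 TPM in shCtrl and from 16.6 to 16.9 TPM in shPCBP1. Exon 73 was at 16.0 and 16.8 TPM, because USP34-212 ends within it and does not count. Exons 76 to 79, which USP34-203 holds, were at 24.2 to 24.6 TPM in shCtrl and at 21.8 to 22.0 TPM in shPCBP1.

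**Figure D3:**
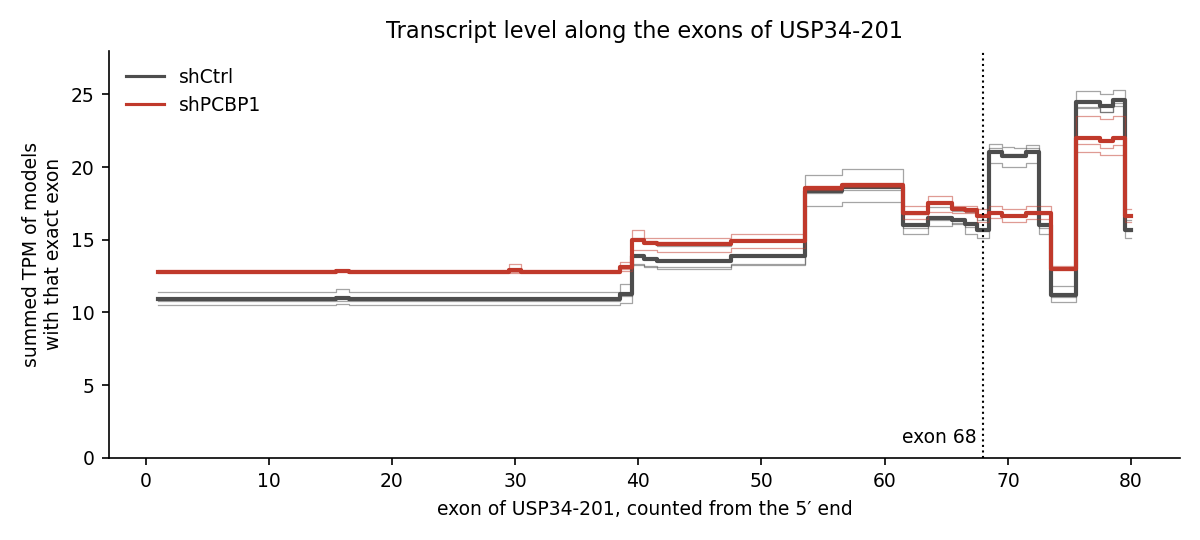
Summed TPM of the models that hold each exon of USP34-201 exactly, by exon number from the 5′ end, with thin lines for libraries and thick lines for the means of 3 libraries. shPCBP1 lies above shCtrl over exons 1 to 15 (12.8 against 10.9 TPM) and below it over exons 69 to 72 (16.6 to 16.9 against 20.7 to 21.0 TPM). At exon 80 the mean of shPCBP1 is again above (16.6 against 15.7 TPM), but the libraries of the groups overlap. USP34-203 ends within exon 80 and does not count there. Its mean is 8.50 TPM in shCtrl and 5.18 TPM in shPCBP1, so the order at exon 80 depends on leaving it out.

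The gene total also differed in direction between units. In TPM, USP34 summed to 38.2, 36.5 and 36.2 in shCtrl and to 25.1, 29.0 and 28.4 in shPCBP1, where the mean was 74.4% of that in shCtrl and the log2 ratio -0.43. In normalized counts it summed to 13744, 14104 and 13725 in shCtrl and to 14629, 14619 and 14468 in shPCBP1, with a DESeq2 log2 fold change of 0.07 (SE 0.0354). All shPCBP1 libraries were below all shCtrl libraries in TPM and above them in normalized counts. With the average length of the expressed models as an offset in the same fit, the log2 fold change was -0.41. Of 14181 genes with a mean of at least 100 normalized counts, 27.2% were higher in shPCBP1 with groups that did not overlap. The units differ in the weight given to short models, which held 26.1 of 37.0 TPM in shCtrl as the 21 partial models together, yet only 3603 of 13857 normalized counts.

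**Figure D4:**
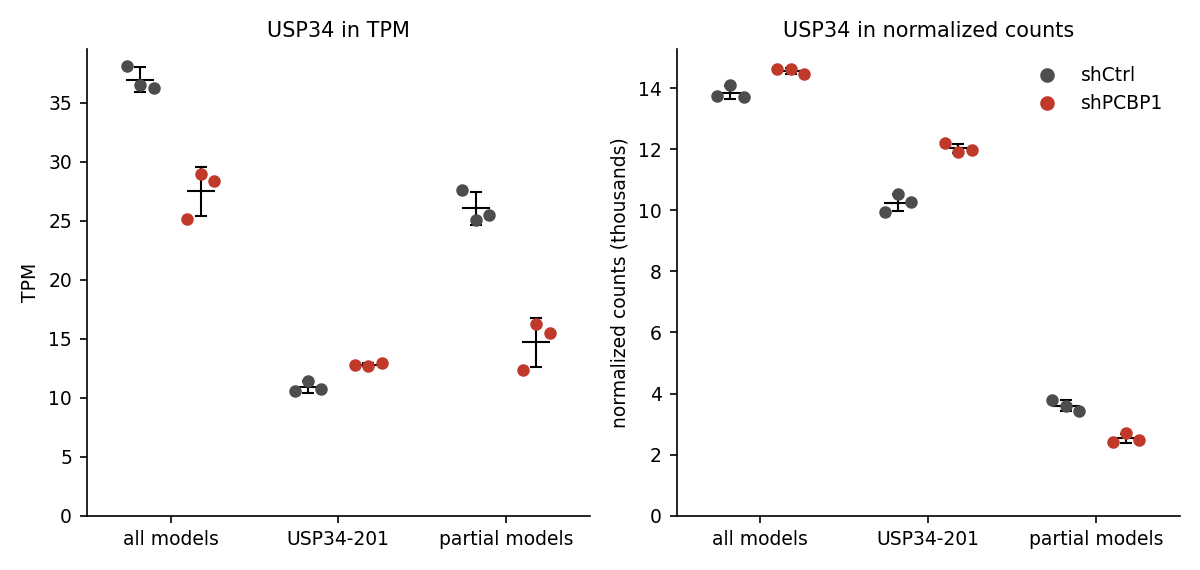
USP34 summed over all 22 models, USP34-201 alone and the 21 partial models, in TPM (left) and in normalized counts, with the axis in units of 1000 (right), with points for libraries and bars for the mean and SD of 3 libraries. The total is at 36.2 to 38.2 TPM in shCtrl and 25.1 to 29.0 TPM in shPCBP1, while in normalized counts it is 13725 to 14104 and 14468 to 14629.

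The 3′ end of USP34 shares sequence with a neighbour on the opposite strand. AHSA2P, a pseudogene related to AHSA1, a co-chaperone of HSP90, lies at chr2:61177418-61191203 on the plus strand and overlaps the end of USP34. Its transcripts share 3151 runs of 31 bases with USP34 models in either orientation, 1582 of them with USP34-201. For USP34-203, 1495 of 1797 runs lay in other genes as well. AHSA2P fell from 7452, 7789 and 6682 to 5903, 5548 and 5802 normalized counts, a log2 fold change of -0.34 (DESeq2 adjusted p = 5.58e-08). The labels do not state whether the kit keeps strand, so reads of the 2 genes there cannot be told apart, and the part of AHSA2P in the lower level of USP34-203 was not tested. Exon 68 and USP34-212 lie outside this overlap, and USP34-212 shared 0 runs with other genes. The other models behind the PSI did share runs with other genes. These were 1585 of 11645 for USP34-201, 1582 of 4279 for USP34-202 and 1260 of 6277 for USP34-207. The part of this sharing in the PSI was not tested.

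Of the 45 genes annotated within 500 kb of USP34, 16 were tested, 1 was higher and 3 were lower, with a median log2 fold change of -0.11. Over all 17095 genes tested, 31.2% passed at an adjusted p under 0.05, 17.7% higher and 13.5% lower, and the median was 0.00. That share covers genes of every level, and no share matched to the level of a list was computed here or below. XPO1, the nuclear export receptor and nearest coding gene before the start of USP34, was at 0.07 (adjusted p = 0.0466). That call did not hold on leaving out shCtrl replicate 1 (adjusted p = 0.0904), shCtrl replicate 2 (0.0562), shPCBP1 replicate 1 (0.124) or shPCBP1 replicate 3 (0.0871), and with edgeR (0.227), TMM factors in DESeq2 (0.105) or a mean of at least 50 normalized counts as filter (0.0982). C2orf74, the nearest coding gene on the other side, was below 0.1 TPM in every library and was not tested. SANBR decreased, with a log2 fold change of -0.46 (adjusted p = 0.000147). The long noncoding RNA ENSG00000286360 was at -0.71 (adjusted p = 0.0498), a call lost on leaving out any one of shCtrl replicate 1 (0.160), shCtrl replicate 2 (0.195), shPCBP1 replicate 1 (0.223) or shPCBP1 replicate 3 (0.0950), and with edgeR (0.0765) or transcript length offsets (0.103). USP34-DT, which starts beside USP34 on the opposite strand, was at -0.29 and did not pass (adjusted p = 0.542).

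Among the other ubiquitin-specific proteases, 47 of 52 were tested, 15 were higher and 4 were lower in shPCBP1, and the median log2 fold change was 0.04. The share that passed was 40.4%, against 31.2% of all genes. The close relatives of USP34 were both higher. USP9X was at 17093, 17439 and 17663 normalized counts in shCtrl and at 19543, 18711 and 19760 in shPCBP1, a log2 fold change of 0.15 (SE 0.0368, adjusted p = 0.000261). With transcript length offsets that call was lost (adjusted p = 0.695). USP24 was at 17389, 17815 and 18090 in shCtrl and at 20422, 19398 and 19490 in shPCBP1, also a log2 fold change of 0.15 (SE 0.0370, adjusted p = 0.000238).

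The largest rises among the USP genes were those of USP37 at 0.45 (adjusted p = 2.44e-11), which removes ubiquitin from cyclin A, USP49 at 0.34 (adjusted p = 1.06e-09), USP11 at 0.27 (adjusted p = 2.22e-05) and USP38 at 0.20 (adjusted p = 0.00614). The genes that decreased were USP4 at -0.31 (adjusted p = 7.78e-06), USP46 at -0.21 (adjusted p = 0.0189), USP48 at -0.16 (adjusted p = 0.000107) and USP19 at -0.13 (adjusted p = 0.0118). The call for USP38 was lost without shCtrl replicate 2 (adjusted p = 0.0539) or shPCBP1 replicate 2 (0.0523), and with transcript length offsets (0.0763). That for USP46 was lost without shCtrl replicate 3 (0.109) or shPCBP1 replicate 2 (0.108).

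Around Axin and β-catenin, 32 of 35 listed genes were tested, 12 were higher and 5 lower, with a median log2 fold change of 0.11. The share that passed was 53.1%, against 31.2% of all genes. Without shCtrl replicate 1, 11 genes passed, 9 higher and 2 lower, in place of 17. AMER1, which brings Axin and APC to the membrane, rose by a log2 fold change of 0.47 (adjusted p = 1.89e-07), and GSK3A, a kinase that marks β-catenin, by 0.46 (adjusted p = 1.83e-22). ZNRF3, a ligase that removes Wnt receptors, rose by 0.38 (adjusted p = 0.000185). AXIN2, an Axin and itself a Wnt target, was at 0.44 (adjusted p = 0.0283), a call lost when shCtrl replicate 1 (0.125) was left out, or shCtrl replicate 3 (0.0683), or shPCBP1 replicate 1 (0.231), and with edgeR (0.0776) or transcript length offsets (0.163). CTNNBIP1, which keeps β-catenin from TCF proteins, changed by -0.39 (adjusted p = 0.000163), and LRP5, a Wnt co-receptor, by -0.22 (adjusted p = 2.73e-05). TCF7 was at -0.23 (adjusted p = 0.0126), lost without shCtrl replicate 1 (0.0678) or shPCBP1 replicate 1 (0.0834) and with transcript length offsets (0.652). CSNK1E was at -0.17 (adjusted p = 0.00378), lost without shCtrl replicate 1 (0.0538) and with transcript length offsets (0.123). AXIN1, the main scaffold, was at 0.06 and did not pass (adjusted p = 0.402).

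In ubiquitin signalling at DNA double-strand breaks, 25 of 26 listed genes were tested, 15 were higher and 2 lower, and the median log2 fold change was 0.13. The share that passed was 68%, against 31.2% of all genes, and leaving out a library left 13 to 16 calls. Of the 26 genes, 25 reached a mean of 1 TPM, against 13926 of the 17095 genes tested, so the 2 shares are not matched for level. H2AX, the histone variant phosphorylated at breaks, rose by 0.44 (adjusted p = 6.25e-29), as did L3MBTL2, a reader that helps recruit RNF168, also by 0.44 (adjusted p = 3.59e-10). PAXIP1, an adaptor of 53BP1, rose by 0.43 (adjusted p = 5.87e-07) and BRCC3, a deubiquitinase of the BRCA1-A complex, by 0.37 (adjusted p = 2.50e-07). RNF168, the ligase that USP34 stabilises, was at 0.13 (adjusted p = 0.0411). That call was lost when shCtrl replicate 1 (0.124), shCtrl replicate 2 (0.114), shPCBP1 replicate 2 (0.145) or shPCBP1 replicate 3 (0.145) was left out, and with edgeR (0.115), TMM factors in DESeq2 (0.0757) or a mean of at least 50 normalized counts as filter (0.0587). L3MBTL1 was at -0.31 (adjusted p = 0.00781), lost without shCtrl replicate 3 (0.0543). ABRAXAS1, the scaffold of the BRCA1-A complex, was at -0.20 (adjusted p = 0.00763), lost with transcript length offsets (0.744).

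In BMP and SMAD1 signalling, 21 of 28 listed genes were tested, 1 was higher and 3 were lower, with a median log2 fold change of -0.11, and 19% passed against 31.2% of all genes. BAMBI, a receptor without a kinase that blocks signalling, rose by 0.40 (adjusted p = 1.81e-07). SMAD1 itself was at -0.11 with fewer than 100 normalized counts in every library and did not pass (adjusted p = 0.880), and its sign turned with transcript length offsets (0.63) and without shCtrl replicate 3 (0.10) or shPCBP1 replicate 3 (0.0024). The 3 lower calls were ID3, a target of the pathway, at -0.45 (adjusted p = 0.0252), ACVR2B, a receptor, at -0.19 (adjusted p = 0.0323) and SMAD4, the common partner of receptor-activated SMADs, at -0.14 (adjusted p = 0.0259). Each was lost in several repeats. For ID3 these included edgeR (0.0562) and the fits without shCtrl replicate 1 (0.0532), shCtrl replicate 2 (0.0825), shCtrl replicate 3 (0.0982), shPCBP1 replicate 1 (0.129) or shPCBP1 replicate 2 (0.125). For ACVR2B they were edgeR (0.0593), transcript length offsets (0.376) and the fits that left out shCtrl replicate 2 (0.192), shCtrl replicate 3 (0.108), shPCBP1 replicate 1 (0.259) or shPCBP1 replicate 2 (0.0830), and for SMAD4 they included transcript length offsets (0.448) and the fits that left out shCtrl replicate 1 (0.0766), shCtrl replicate 2 (0.107), shPCBP1 replicate 1 (0.0769) or shPCBP1 replicate 2 (0.120).

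**Figure D5:**
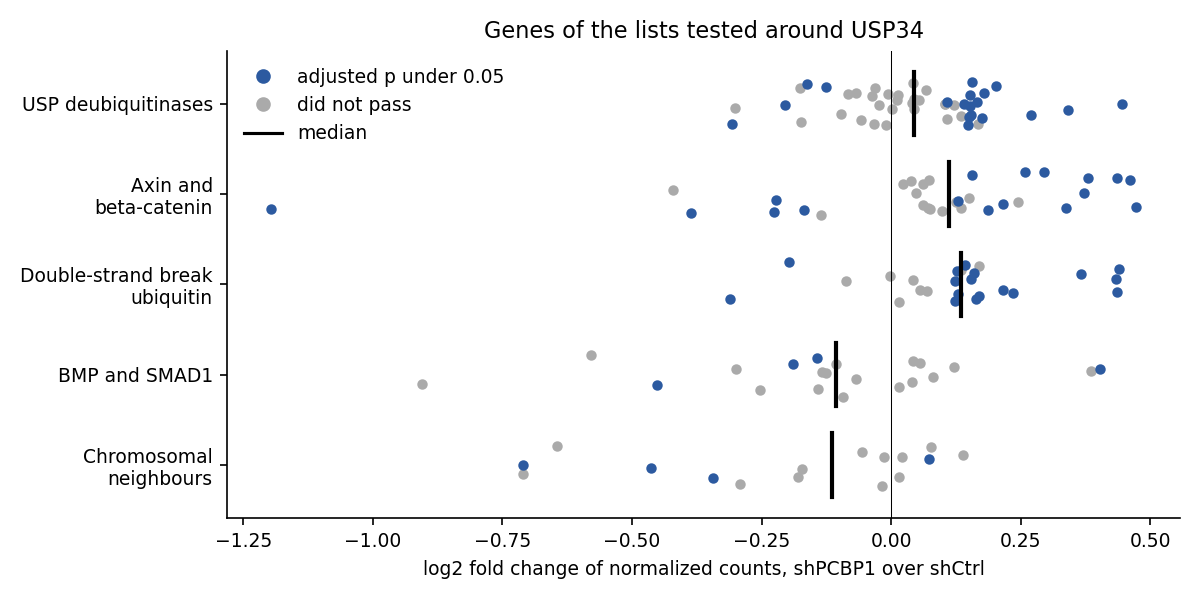
Log2 fold change of normalized counts (shPCBP1 over shCtrl, 3 libraries each) for the tested genes of 5 lists, with blue points for an adjusted p under 0.05, grey points for genes that did not pass and a black line at the median. The medians are 0.04 for USP genes, 0.11 for Axin and β-catenin, 0.13 for double-strand breaks, -0.11 for BMP and SMAD1 and -0.11 for the chromosomal neighbours.

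The exons whose PSI over the 6 libraries was most like that of USP34 exon 68 were taken from cassette exons with a summed level of at least 5 TPM, by the root mean square difference in PSI. They were in PIK3CA (5.31 points), GCFC2 (6.63 points), NTAN1 (6.69 points), COPA (6.82 points) and PPIP5K2 (6.97 points). The PIK3CA exon at chr3:179219196-179219277 was at 71.8%, 85.2% and 73.5% in shCtrl and at 100%, 100% and 89.0% in shPCBP1. None of the 5 was as even within shPCBP1 as the USP34 exon, whose libraries spanned 98.5% to 98.9%. The main skipping model of that exon was listed at 0 in every shPCBP1 library, which can be a failed estimate. Since the USP34 exon was also chosen from this contrast, nothing is read from its evenness. For the gene total in log2 normalized counts, centred on each gene's mean, the nearest of 9368 genes with a mean of at least 1000 were ZNF451, ROCK2, ARRDC1-AS1, CEP43 and COPRS, with root mean square differences of 0.0120 to 0.0153. Their log2 fold changes were 0.05 to 0.09, and none passed the test.

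USP34 held 2 other cassette exons by the same rule. The shorter form of exon 68 in USP34-210 had a PSI of 0.286% against the skipping models in shCtrl and 10.1% in shPCBP1, and its groups overlapped. USP34-210 held at most 2.96 estimated counts in a library. The skipping models it was set against were at 5.34 TPM in shCtrl and 0.217 TPM in shPCBP1, so a gain of the shorter form is not read from this PSI. An exon of USP34-206, chr2:61346257-61346347, had a PSI of 0.772% in shCtrl and 0.560% in shPCBP1, and its groups overlapped too.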

How the data were processed

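Salmon (v1.10.2) was run by the authors on reads of 6 libraries, and the deposited files hold TPM and estimated counts per transcript. The annotation release behind the Salmon index is not given in the sources used here. Per the labels, the submitters' processing notes also list STAR (2.7.11b), DESeq2 (3.19) and build hg38. Transcript IDs without version were matched to GENCODE release 44, which found 251612 of 252045, and all 22 USP34 models had equal lengths in both. Libraries of a group differed by more than sampling noise. For gene totals, the estimated counts of a gene's models were added and rounded to whole numbers, genes below 10 over all libraries were left out, and DESeq2 (1.42.0) size factors and the Wald test with Benjamini-Hochberg adjustment were used, which was tested on simulated data. Normalized counts are counts divided by size factors. A gene passed at an adjusted p under 0.05, and genes without an adjusted p were not tested. Cassette exons were compared where the including or skipping models had a mean of at least 10 estimated counts and both together were above 0 in every library.

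No test was made on USP34, since it was chosen from this contrast. USP34, its exon and the gene lists were chosen with earlier results of these data known. Named from each list were up to 4 higher and 4 lower genes that passed with a mean of at least 100 normalized counts, by the size of the fold change, along with the relatives and neighbours of USP34. AXIN1, RNF168, SMAD1, AHSA2P, USP34-DT and USP34-219 were named after their values were seen. Alternatives were edgeR (4.0.16), other size factors, filters, length offsets, pseudocounts, a replicate block and leaving out each library.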

Additional observations from a re-analysis of the deposited data

How the results depend on the processing

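PCBP1 and USP34-201 kept their direction under every alternative run, and the counts of USP and double-strand break genes stayed within 1.5 times those reported. The USP34 gene total was reversed with transcript length offsets (log2 fold change -0.41) and otherwise ran from 0.06 to 0.09. The PSI difference of exon 68 was 1.50 points from estimated counts, 21.1 points with 1 TPM added and 47.4 points over partial models only, and ran from 23.1 to 25.2 points without each library. It could not be computed over models of the protein-coding biotype or full-length models, which include no skipping model. The difference in full-length share was 8.60 points from estimated counts, and ran from 15.2 to 18.6 points without each library. BMP and SMAD1 genes passing numbered 2 with edgeR, with length offsets and with the replicate block, and 1 to 5 without each library (2 without shCtrl replicate 1, and 1 without shCtrl replicate 2, shPCBP1 replicate 1 or shPCBP1 replicate 2). Neighbours passing numbered 2 with edgeR and with the replicate block, and 2 to 5 without each library (2 without shCtrl replicate 1, shPCBP1 replicate 1 or shPCBP1 replicate 3). For Axin and β-catenin genes, the numbers were 11 to 16 without each library, lowest without shCtrl replicate 1.

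Deviations from the group means correlated at 0.094, -0.0203 and -0.105 between libraries of the same number, so no pairing by number was seen. With 3 libraries per group these values cannot exclude one, and the labels do not state whether the numbers pair the libraries. With the replicate block the PSI difference was 24.1 points, the USP34 gene total 0.07 and the PCBP1 log2 fold change -2.47, and the named calls lost were USP46 (adjusted p = 0.0662), USP19 (0.0514), AXIN2 (0.101), TCF7 (0.0549), ID3 (0.0680), SMAD4 (0.0832), RNF168 (0.0874), XPO1 (0.0885) and ENSG00000286360 (0.0968). Of 214 values of 36 named genes under the alternatives that keep all libraries, 29 lost their call and 1 changed sign, that of SMAD1 (0.63 with transcript length offsets). SMAD1, which did not pass, also changed sign without shCtrl replicate 3 (0.10) and shPCBP1 replicate 3 (0.0024), and ran from -0.0805 to 0.103 in the 3 such fits that gave it an adjusted p. USP34-212 rested on 109.4 to 206.3 counts per shCtrl library, which limits its precision.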
